A study of Mus musculus with 5 samples.

Results

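Langerhans cells and macrophages are not the cells that were sorted for these libraries, and their marker genes were nevertheless measured in each of them. The 10 genes described here were chosen by name as markers of these phagocytes (Cd207, Csf1r, Lyz2, Mrc1, Cd68, C1qa, C1qb, Adgre1, Itgax and Fcgr1), and each has a row among the 47729 genes of the count table. All 10 were among the 19011 genes that passed the filter on low counts, and none was at 0 counts in any library. RNA came from dermal ILC2s (group 2 innate lymphoid cells) that were sorted from mouse skin without stimulation, in 3 pools of WT (B6) mice, numbered 5, 6 and 13, and 2 pools labelled Rag1-/- (B6), numbered 2 and 7. Rag1 encodes a part of the recombinase that assembles antigen receptor genes, so mice that lack it make no mature T and B cells. The labels name 30 WT and 16 Rag1-/- mice, the methods of the study give a higher number of Rag1-/- mice, and each library is a pool of animals, so differences between single mice within a pool were not measured. The mice of both genotypes were adult C57BL/6 mice, and the gate of the study kept viable cells with CD45 and high CD90 and without CD2 and CD3. In the cell type field the labels call the WT cells type 2 and the Rag1-/- cells type 3 innate lymphoid cells, whereas the protocol field calls all of them dermal ILC2s.

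Langerhans cells are phagocytes of the epidermis that take up antigen, carry it to lymph nodes and renew themselves in the skin. They carry langerin, the product of Cd207, a lectin that forms their Birbeck granules and that some dermal dendritic cells carry as well. Dermal macrophages clear debris and dead cells, make the C1q chains of the complement system and display scavenger receptors such as the mannose receptor. Both kinds of cell need the receptor CSF1R, which binds IL-34 made by keratinocytes and CSF1.

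The libraries held 38796193, 39477243 and 32939428 counts on genes in WT pools 5, 6 and 13, 8050562 counts in Rag1-/- pool 2 and 38922750 counts in Rag1-/- pool 7. The smallest level that 3 counts can show was 0.373 CPM in pool 2 (CPM, the count scaled to the total count of the library) and at most 0.0911 CPM in the other libraries. Rag1 itself had 4, 0 and 5 counts in the WT pools and 5 and 48 counts in pools 2 and 7, so it was not lower in the libraries labelled Rag1-/-. Counts over the whole gene do not show whether the deleted part is absent, and the genotype of these libraries rests on their labels. All 16 ILC2 markers had counts in each library, with a summed level of 1534 to 2950 CPM in WT and of 7854 and 5293 CPM in pools 2 and 7. Keratinocyte markers were also present, with summed levels of 30402 to 43421 CPM in WT, 7612 CPM in pool 2 and 17473 CPM in pool 7, and none of the 16 was at 0 in any library.

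The sequences before the start of 4 of the genes are shown. Some of these genes behave differently across the libraries below, although Lyz2 and C1qb behave alike, and a relation of sequence to level was not tested. They are the 250 bases upstream of the start of Cd207, C1qb, Lyz2 and Mrc1, taken from RefSeq on GRCm38.p6. Entries of 7 of the 10 genes were used. Csf1r was left out of the search for motifs, and C1qa and Adgre1 had no entry. Capitals mark GAGGAA, the short purine-rich box known to be bound by PU.1, the leading transcription factor of myeloid cells, and AGGAAGT, a longer form of the core bound by its ETS family, each on either strand (reverse TTCCTC and ACTTCCT). The region of Cd207 lies at chr6:83677858-83678107 on the minus strand, that of C1qb at chr4:136886201-136886450 on the minus strand, that of Lyz2 at chr10:117282273-117282522 on the minus strand and that of Mrc1 at chr2:14229164-14229413 on the plus strand.
Cd207: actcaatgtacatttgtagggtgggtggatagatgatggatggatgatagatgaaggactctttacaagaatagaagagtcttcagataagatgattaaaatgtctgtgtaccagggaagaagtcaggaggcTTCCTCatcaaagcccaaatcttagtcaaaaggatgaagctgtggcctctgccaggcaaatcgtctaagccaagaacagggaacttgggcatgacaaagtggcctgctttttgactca
C1qb: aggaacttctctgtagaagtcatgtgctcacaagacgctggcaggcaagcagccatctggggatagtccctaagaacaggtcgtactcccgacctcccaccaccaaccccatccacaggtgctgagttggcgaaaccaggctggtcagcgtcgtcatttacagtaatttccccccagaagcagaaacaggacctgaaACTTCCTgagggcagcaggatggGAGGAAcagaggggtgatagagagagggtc
Lyz2: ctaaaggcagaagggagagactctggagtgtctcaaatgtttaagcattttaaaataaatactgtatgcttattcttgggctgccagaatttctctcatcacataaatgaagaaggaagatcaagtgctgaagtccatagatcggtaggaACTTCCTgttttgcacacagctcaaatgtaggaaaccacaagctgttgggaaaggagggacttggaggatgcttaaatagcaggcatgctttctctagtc
Mrc1: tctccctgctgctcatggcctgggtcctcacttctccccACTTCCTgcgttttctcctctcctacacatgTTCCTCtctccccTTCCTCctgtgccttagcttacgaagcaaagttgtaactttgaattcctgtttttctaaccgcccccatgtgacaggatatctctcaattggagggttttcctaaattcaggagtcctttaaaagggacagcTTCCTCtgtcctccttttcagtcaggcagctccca

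In these 250 bases GAGGAA was found once for Cd207, once for C1qb, 3 times for Mrc1 and not for Lyz2. AGGAAGT was found once each for C1qb, Lyz2 and Mrc1 and not for Cd207. Of the 7 genes whose entries were used, without Csf1r, 5 held GAGGAA and 4 held AGGAAGT, against 23.3% and 7.69% of 32851 promoters of the same length. In Fcgr1 the 2 motifs overlap by 1 base. The motifs were picked after the sequences and the expression values were seen, and a match describes letters in the window, not a bound site.

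No gene of the 10 passed the test between the genotypes, and for 9 of them the levels of the 2 genotypes overlapped. A gene was called where edgeR's quasi-likelihood test gave an adjusted p-value below 0.05 with a log2 fold change beyond 1 in either direction. Called higher in the libraries labelled Rag1-/- were 0 of the 10 genes and 3.58% of all genes tested, and called lower were 0 of the 10 and 2.16% of all genes. With edgeR 0 of the 10 had an unadjusted p-value under 0.05, against 26.4% of all genes tested. With DESeq2 it was 1 of the 10, against 30.5% of the genes it tested. After adjustment DESeq2 called 0 of the 10, with 6.85% of all genes called higher and 7.16% lower. The median log2 fold change (Rag1-/- over WT) was -0.04 over the 10 genes and 0.02 over all genes, with 4 genes above and 6 below 0. A missed threshold in 3 against 2 pools does not show that the levels were alike.

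**Figure D1:**
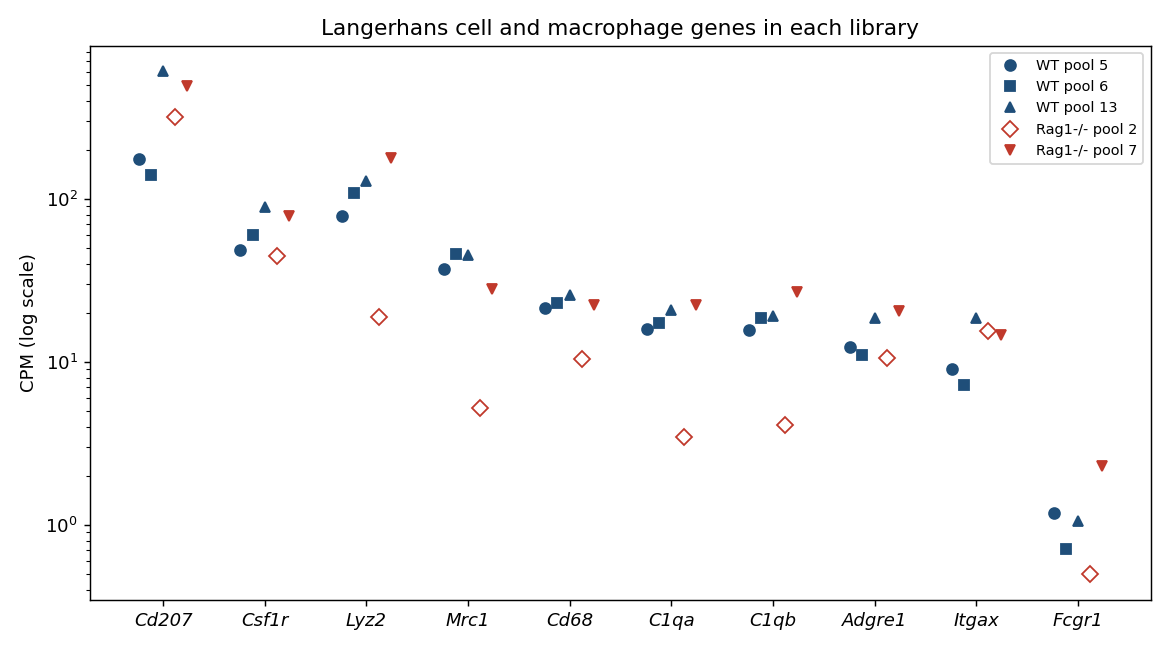
Level of each of the 10 genes in CPM (log axis) in each library, with WT pools in blue and Rag1-/- pools in red (pool 2 open). WT pool 13 and Rag1-/- pool 7 stand above the other pools for Cd207, and pool 2 is lowest for 8 of the 10 genes.

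Cd207 (ENSMUSG00000034783, chr6:83671215-83677857, minus strand, GRCm38), which encodes langerin, was at 177, 140 and 608 CPM in WT pools 5, 6 and 13 and at 316 and 493 CPM in Rag1-/- pools 2 and 7. Pool 13 was the highest of all libraries and pool 6 the lowest, so both Rag1-/- values lay within the range of WT. The highest WT pool was 4.34-fold above the lowest. The log2 fold change was 0.44 ± 0.61 (SE, adjusted p = 0.707, edgeR), and without WT pool 13 it was 1.39 (adjusted p = 0.12). Cd207 was the only one of the 10 at least 3-fold higher in WT pool 13 than in both other WT pools, as were 1.02% of all genes, a comparison added after the values were seen.

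Itgax encodes CD11c, an integrin of Langerhans cells, dendritic cells and some macrophages (ENSMUSG00000030789, chr7:128129547-128150657, plus strand). Its levels were 9.05, 7.19 and 18.5 CPM in WT and 15.4 and 14.5 CPM in pools 2 and 7. As for Cd207, WT pool 13 was highest and WT pool 6 lowest. The log2 fold change was 0.41 ± 0.41 (SE, adjusted p = 0.585, edgeR). Itgax and Cd207 were the 2 genes of the 10 that were not lowest in pool 2.

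Csf1r encodes the receptor for CSF1 and IL-34 on which Langerhans cells and most macrophages depend (ENSMUSG00000024621, chr18:61105572-61132149, plus strand). It was at 48.7, 60.0 and 89.5 CPM in WT and at 44.6 and 78.8 CPM in pools 2 and 7, with overlapping groups and a log2 fold change of -0.05 ± 0.35 (SE, adjusted p = 0.951, edgeR). The gene overlaps Hmgxb3 on the other strand, and with an unstranded kit reads of the 2 genes in the overlap cannot be told apart.

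Adgre1 encodes F4/80, a surface receptor of mouse macrophages and Langerhans cells (ENSMUSG00000004730, chr17:57358686-57483529, plus strand). Its levels were 12.4, 11.02 and 18.5 CPM in WT and 10.6 and 20.6 CPM in pools 2 and 7. The Rag1-/- pools enclosed the WT pools, and the log2 fold change was 0.22 ± 0.37 (SE, adjusted p = 0.760, edgeR). Cd68 encodes a glycoprotein of phagocyte lysosomes and endosomes (ENSMUSG00000018774, chr11:69664213-69666153, minus strand). It was at 21.3, 23.1 and 25.7 CPM in WT, at 10.4 CPM in pool 2 and at 22.4 CPM in pool 7, so that pool 2 stood below the narrow range of the other libraries. The log2 fold change was -0.44 ± 0.34 (SE, adjusted p = 0.464, edgeR).

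C1qa and C1qb encode the A and B chains of C1q, which starts the classical complement pathway and is made chiefly by macrophages and some dendritic cells. The 2 genes lie side by side on the minus strand of chromosome 4 (C1qa, ENSMUSG00000036887, chr4:136895917-136898803; C1qb, ENSMUSG00000036905, chr4:136880129-136886187), with C1qc between them. C1qa was at 15.9, 17.5 and 20.8 CPM in WT, at 3.48 CPM in pool 2 and at 22.4 CPM in pool 7. C1qb was at 15.7, 18.6 and 19.2 CPM in WT, at 4.10 CPM in pool 2 and at 26.9 CPM in pool 7. For both genes the Rag1-/- pools were the lowest and the highest of all libraries. The log2 fold changes were -0.38 ± 0.64 for C1qa and -0.11 ± 0.64 for C1qb (SE, adjusted p = 0.761 and 0.941, edgeR).

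Lyz2 encodes lysozyme M, a bacteriolytic enzyme of macrophages, monocytes and neutrophils (ENSMUSG00000069516, chr10:117277334-117282274, minus strand). It was at 78.7, 109 and 129 CPM in WT, at 18.9 CPM in pool 2 and at 177 CPM in pool 7. Again the Rag1-/- pools took the lowest and the highest place, and the log2 fold change was -0.04 ± 0.76 (SE, adjusted p = 0.985, edgeR). Its paralog Lyz1 is nearly identical, and reads shared by the 2 genes make the values of both uncertain. Fcgr1 encodes the high-affinity Fc receptor for IgG, CD64 (ENSMUSG00000015947, chr3:96282909-96293969, minus strand). It was at 1.19, 0.71 and 1.06 CPM in WT and 0.50 and 2.29 CPM in pools 2 and 7, and its value in pool 2 rests on 4 counts. The log2 fold change was 0.65 ± 0.66 (SE, adjusted p = 0.594, edgeR).

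Mrc1 encodes the mannose receptor CD206 of dermal macrophages (ENSMUSG00000026712, chr2:14229392-14332057, plus strand). Its levels were 37.0, 46.2 and 45.0 CPM in WT, 5.22 CPM in pool 2 and 28.0 CPM in pool 7. Mrc1 was the only gene of the 10 whose groups did not overlap, with both Rag1-/- pools below each WT pool, as were 24% of all genes tested, and no gene of the 10 had both Rag1-/- pools above each WT pool (21.9% of all genes). Its log2 fold change of -1.27 ± 0.60 (SE, adjusted p = 0.230, edgeR) did not pass the test, nor did it with DESeq2 (adjusted p = 0.094). It passed when no gene was filtered out (-1.30, adjusted p = 0.020, edgeR), a setting in which 4.98% of genes were called lower.

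Per length of transcript, as RPKM, the CPM divided by the length in kilobases, Cd207 was the most abundant of the 10, at 228 ± 132 RPKM (mean ± SD, n = 5 libraries). Lyz2 followed with 81.0 ± 46.6 RPKM. Each of the 5 libraries placed Cd207 above Lyz2 and Lyz2 above Cd68. Cd68 (16.7), Csf1r (16.6), C1qb (15.5) and C1qa (15.4 RPKM) did not differ beyond their spread, since neighbours in this order changed places between libraries. Mrc1 was at 6.01 ± 3.13, Adgre1 at 4.50 ± 1.43 and Itgax at 3.20 ± 1.16 RPKM, and Mrc1 and Adgre1 also changed places. Fcgr1 came last, below Itgax in each library, with 0.443 ± 0.268 RPKM. The deposited length of Csf1r is 0.823 of its longest annotated transcript, which bears on its place.

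Cd207 was not a trace transcript of these sorts. In RPKM it stood above 94.9% to 99.2% of all genes tested in the 3 WT pools and above 98% and 98.8% in pools 2 and 7. Its 116, 92.0 and 400 RPKM in WT compare with 131, 146 and 181 RPKM of Thy1, the gene of CD90 on which the cells were sorted, so that in WT pool 13 Cd207 was above Thy1. In pools 2 and 7 it was at 208 and 324 RPKM, below Thy1 at 570 and 538 RPKM. Ptprc, which encodes CD45, was at 21.2, 73.3 and 59.4 RPKM in WT, below Cd207 in each WT pool, and at 205 and 109 RPKM in pools 2 and 7. Levels of transcripts do not give numbers of cells, and in bulk RNA fewer cells of a type and less RNA per cell cannot be told apart.

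The 2 Rag1-/- pools differed from each other for most of the 10 genes. In CPM, pool 7 was above pool 2 by 9.40-fold for Lyz2 (95% counting interval 8.004 to 11.1), by 6.57-fold for C1qb (4.65 to 9.59) and by 6.44-fold for C1qa (4.43 to 9.75). For Mrc1 it was 5.37-fold (3.94 to 7.49), and for Fcgr1 4.60-fold (1.74 to 17.3). These 5 of the 10 genes were at least 4-fold higher in pool 7, a difference seen for 6.89% of all genes tested, and this comparison of pools was chosen after the values were seen. Intervals cover counting error only and compare 2 libraries.

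The other 5 genes differed less between these pools. The ratio of pool 7 over pool 2 was 2.15 for Cd68 (95% counting interval 1.71 to 2.72), 1.95 for Adgre1 (1.56 to 2.47), 1.77 for Csf1r (1.58 to 1.98) and 1.56 for Cd207 (1.50 to 1.63). Itgax had a ratio of 0.944 with an interval of 0.776 to 1.16. Pool 2 was below all 4 other libraries for 8 of the 10 genes, as it was for 31.4% of all genes. Over whole lists the median ratio of pool 7 over pool 2 was 3.37 for the 10 genes, 2.09 for 6 endothelial markers, 1.92 for 8 mast cell markers, 1.78 for 16 keratinocyte markers, 0.844 for 6 fibroblast markers and 0.890 for the pan-leukocyte genes. Wider lists of phagocyte genes had lower medians, with 1.89 for secreted macrophage products, 1.74 for macrophage surface genes, 1.65 for complement genes, 1.40 for Langerhans and dendritic cell genes, 1.37 for lysosome genes, 1.19 for Fc receptors and adaptors, 0.924 for myeloid transcription factors, 0.752 for the growth factor axis and 0.408 for monocyte and neutrophil genes. Pool 2 is also the library of lowest depth, and the part of depth in these ratios was not tested.

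**Figure D2:**
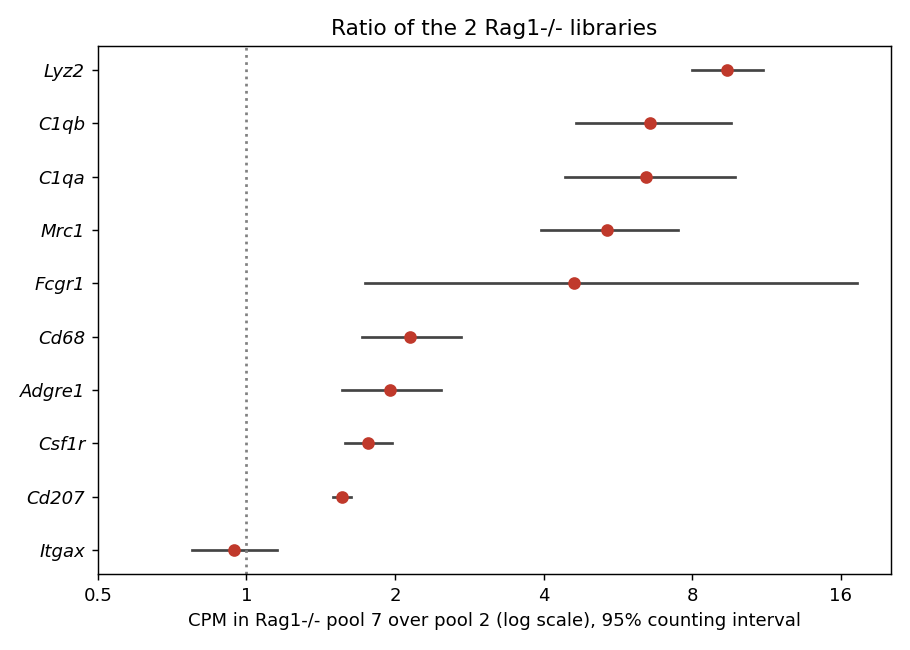
Ratio of the CPM in Rag1-/- pool 7 over that in Rag1-/- pool 2 for each gene (points, log axis), with lines for the 95% counting interval and a dotted line at a ratio of 1. Lyz2 is farthest from 1 at 9.40, C1qa, C1qb, Mrc1 and Fcgr1 lie between 4.60 and 6.57, and the interval of Itgax includes 1.

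The call for several genes turned on which of these 2 pools was used. Without pool 7, 5 of the 10 genes were called lower with edgeR, as were 7.98% of all genes, and the lone pool 2 was then assumed to vary like the WT pools. These were Mrc1 (log2 fold change -3.09, adjusted p = 0.012), Lyz2 (-2.54, 0.015), C1qa (-2.43, 0.014), C1qb (-2.18, 0.014) and Cd68 (-1.22, 0.029). Without pool 2, 0 of the 10 and 0% of all genes were called in either direction with edgeR, while 4 of the 10 and 5200 of all genes had an unadjusted p-value under 0.05. The log2 fold changes were then 0.82 for Lyz2, 0.66 for C1qb, 0.38 for C1qa, 0.01 for Cd68 and -0.54 for Mrc1. Thus Mrc1 was below WT in either pool, whereas Lyz2, C1qa and C1qb lay on opposite sides of WT in the 2 pools.

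The 10 genes were also set against transcripts shared by leukocytes. Pan-leukocyte genes, a list of 24 genes such as Ptprc, had a summed level of 994, 2378 and 2401 CPM in the WT pools. In pools 2 and 7 it was 7818 and 6794 CPM. With edgeR 17 of the 23 tested were called higher, against 3.58% of all genes, and the median log2 fold change of these 23 pan-leukocyte genes was 2.00. For each 1000 counts of these genes there were 178, 58.9 and 253 of Cd207 in the WT pools, against 40.4 and 72.6 in pools 2 and 7. On this scale C1qa was at 16.0, 7.34 and 8.66 in WT and at 0.445 and 3.30 in pools 2 and 7. Mrc1 was at 37.2, 19.5 and 18.7 in WT and at 0.667 and 4.12 in those pools. With libraries scaled on these genes, 8 of the 10 genes were called lower with edgeR, all but Cd207 and Fcgr1, as were 68% of all genes tested. The median log2 fold change was then -2.08 over the 10 genes and -2.16 over all genes, so the 10 genes moved about as far as the whole table, and the sign of a gene on this scale follows from the scaling. RLE size factors or total counts turned the direction of none of the 10.

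**Figure D3:**
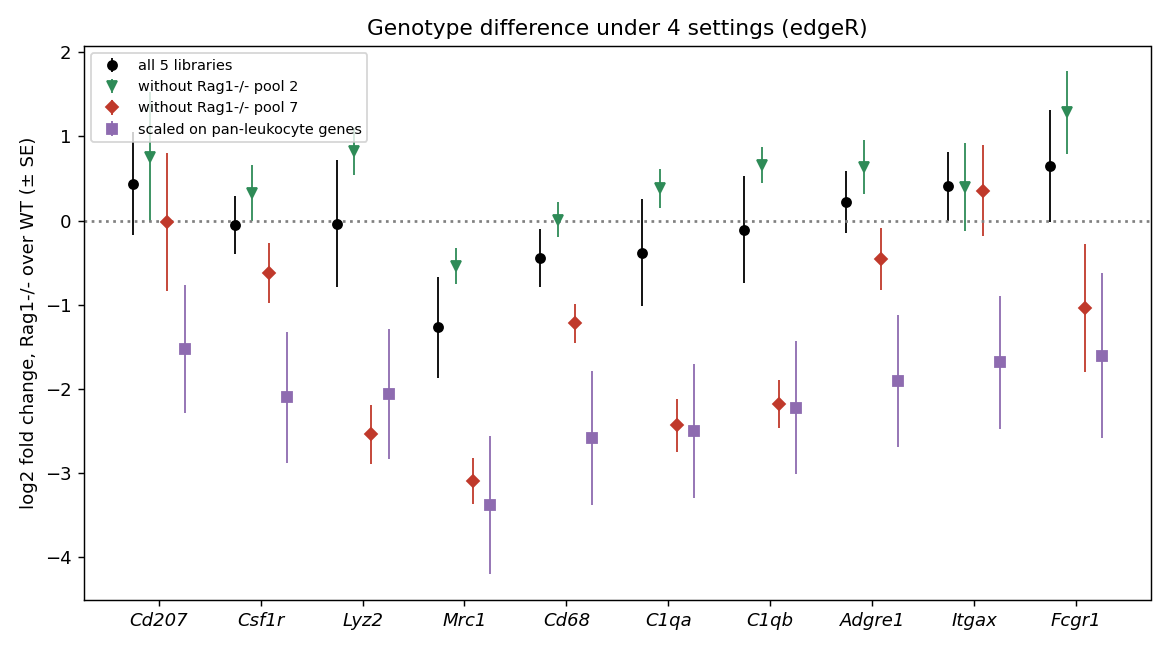
Log2 fold change of each gene (Rag1-/- over WT, points, with the SE as lines) with all 5 libraries, without pool 2, without pool 7 and with libraries scaled on pan-leukocyte genes. The values without pool 7 fall to -2.18 and below for Lyz2, Mrc1, C1qa and C1qb, and the scaling on pan-leukocyte genes puts all 10 genes below 0.

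**Figure D4:**
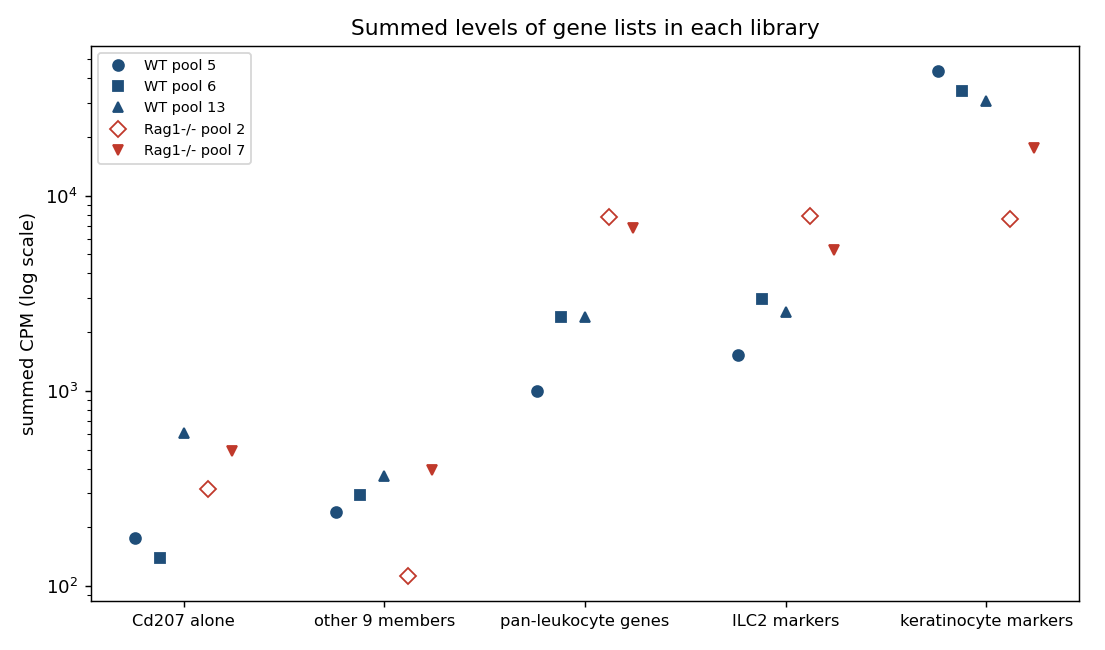
Summed CPM (log axis) of Cd207 alone, the other 9 genes, pan-leukocyte genes, ILC2 markers and keratinocyte markers in each library. Pan-leukocyte genes and ILC2 markers are higher in both Rag1-/- pools than in each WT pool and keratinocyte markers lower, whereas the groups overlap for Cd207 and for the other 9 genes.

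The 10 genes together took 417, 434 and 975.1 CPM in WT pools 5, 6 and 13 and 429 and 887 CPM in pools 2 and 7. Cd207 made up 42.4%, 32.3% and 62.4% of their counts in WT and 73.6% and 55.6% in pools 2 and 7. Without Cd207 the other 9 genes summed to 240, 293 and 367 CPM in WT, to 113 CPM in pool 2 and to 393 CPM in pool 7. Pool 2 therefore had a summed level near that of WT pools 5 and 6, with the highest share of Cd207 and the lowest level of the other 9.

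Ratios of genes within a library do not depend on how libraries are scaled, and 8 were computed. The count of Cd207 over that of C1qa was 11.1, 8.02 and 29.2 in WT and 89.3 and 22.0 in pools 2 and 7. Pool 2 had the highest ratio and pool 7 lay among the WT pools. The mean log2 ratio was higher by 1.69 in the Rag1-/- pools (3.78 ± 0.97, SD, n = 3 in WT and 5.47 ± 1.43, SD, n = 2; two-sided exact permutation test, p = 0.3, adjusted over the 8 ratios 0.4). With 10 ways to place the libraries the smallest p-value possible is 0.1.

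Cd207 over Csf1r was 3.62, 2.34 and 6.79 in WT and 7.08 and 6.26 in pools 2 and 7, with an exact permutation p = 0.3. Csf1r over C1qa was 3.05, 3.44 and 4.30 in WT, 12.6 in pool 2 and 3.52 in pool 7, so that pool 2 stood apart here too (exact permutation p = 0.2). Lyz2 over C1qa was 4.94, 6.25 and 6.18 in WT and 5.35 and 7.92 in pools 2 and 7, with an exact permutation p = 0.6.

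Ratios of 2 gene pairs did not overlap between the genotypes. In pool 2 both rest on few counts, with 33 for C1qb, 42 for Mrc1 and 28 for C1qa. The counting error of these ratios was not computed. C1qb over C1qa was 0.989, 1.07 and 0.924 in WT and 1.18 and 1.20 in pools 2 and 7, and Mrc1 over C1qa was 2.32, 2.65 and 2.16 in WT and 1.49 and 1.25 in pools 2 and 7. On the log2 scale the Rag1-/- pools differed from WT by 0.26 for C1qb over C1qa and by -0.80 for Mrc1 over C1qa, each with the smallest p-value the exact permutation test can give, 0.1, and 0.4 after adjustment. Mrc1 was therefore lower relative to C1qa in both Rag1-/- pools, although C1qa itself lay below WT in one pool and above it in the other, and neither difference passed the threshold.

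**Figure D5:**
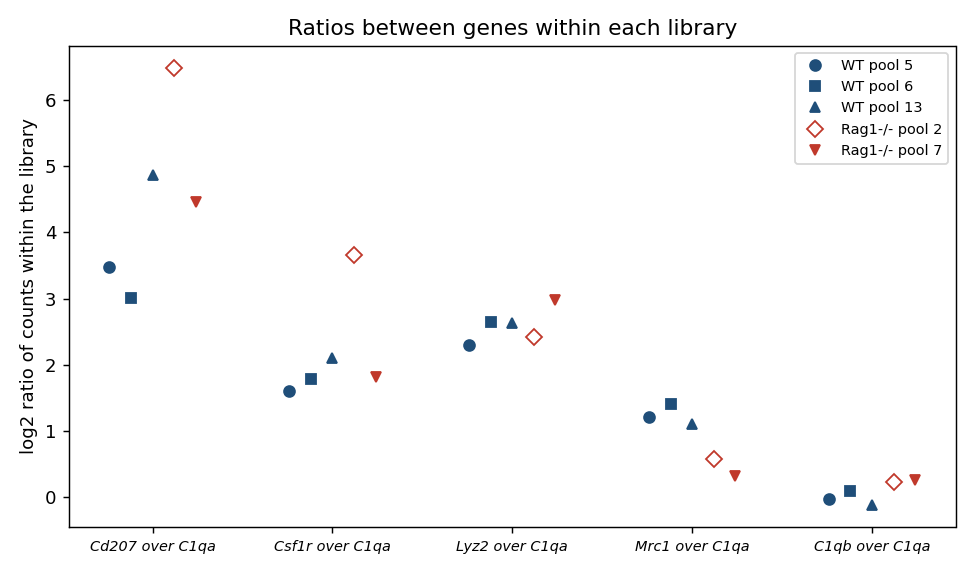
Log2 ratio of the counts of 2 genes within each library, with WT pools in blue and Rag1-/- pools in red. Rag1-/- pool 2 stands above the other libraries for Cd207 over C1qa (6.48) and Csf1r over C1qa, both Rag1-/- pools lie below WT for Mrc1 over C1qa, and C1qb over C1qa varies least.

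Among the 10 genes, C1qa and C1qb had the most similar course across the 5 libraries, with a root mean square difference of 0.14 between their log2 CPM after each was centred on its mean. Csf1r and Adgre1 followed with 0.19. Among all genes tested with a mean of at least 1 CPM, those most like Cd207 were Pgf (0.17), Alox5 (0.19) and Srl (0.21). Pgf encodes placental growth factor and Alox5 the lipoxygenase that starts leukotriene synthesis. Alox5 was at 9.02, 7.83 and 26.5 CPM in WT and at 19.3 and 22.5 CPM in pools 2 and 7, with the same high WT pool 13 as Cd207.

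The genes most like C1qa were C3ar1 (0.11), the receptor of the complement fragment C3a, C1qb (0.14) and Pllp (0.16), which encodes a membrane protein of myelin. C3ar1 was at 8.33, 8.41 and 12.3 CPM in WT, 1.86 CPM in pool 2 and 11.3 CPM in pool 7. Those most like Csf1r were Gm17586 (0.05), Gemin6 (0.06) and Il10 (0.06), each at a mean below 5 CPM in both genotypes. These likenesses describe 5 libraries of sorted cells, of which Rag1-/- pool 2 had the lowest depth, and carry no test.

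Other genes of phagocytes were taken from 9 lists, which were chosen with earlier results of these data known. The lists held 110 genes, of which 104 were tested. With edgeR 9 of them were called higher in the libraries labelled Rag1-/- (8.65%, against 3.58% of all genes) and 0 lower (2.16% of all genes), and their median log2 fold change was 0.10 against 0.02 over all genes. At an unadjusted p-value under 0.05, 23 were higher and 11 lower, where 26.4% of all genes tested were below it in either direction. DESeq2 called 16 higher and 3 lower (6.85% and 7.16% of all genes). The 9 calls were lost without any one of WT pools 5, 6 and 13 or of Rag1-/- pool 2, when 0 genes of the whole table were called, and with libraries scaled on pan-leukocyte genes 0 of these genes were called higher and 57 lower (0.0842% and 68% of all genes).

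Of 9 genes in the growth factor axis that feeds these cells, 2 were called higher and 0 lower. Csf2, which encodes GM-CSF and is made by lymphocytes including ILC2s, was at 1.88, 5.07 and 6.13 CPM in WT and at 56.1 and 24.2 CPM in pools 2 and 7 (log2 fold change 3.22 ± 0.54, SE, adjusted p = 0.031, edgeR). Flt3l, the ligand of the dendritic cell growth receptor FLT3, was at 10.7 to 17.6 CPM in WT and at 56.3 and 39.4 CPM in pools 2 and 7 (1.68, adjusted p = 0.031, edgeR). Of 12 myeloid transcription factors 1 was called, Irf4, a regulator of dendritic cells and lymphocytes (1.56, adjusted p = 0.036). Klf4 and Maf, the most abundant of that list, had log2 fold changes of -0.84 and 0.10 and did not pass.

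Of 19 Langerhans and dendritic cell genes 2 were called higher. Zbtb46, a transcription factor of classical dendritic cells, was at 25.5, 48.5 and 45.1 CPM in WT and at 129 and 152 CPM in pools 2 and 7 (1.86, adjusted p = 0.031, edgeR). Ccr7, the receptor that guides dendritic cells and lymphocytes to lymph nodes, was at 12.7 to 24.0 CPM in WT and at 82.5 and 68.1 CPM in pools 2 and 7 (2.08, adjusted p = 0.031). For both, each Rag1-/- pool was above each WT pool, while the groups overlapped for Cd207 and Itgax. The same held for 9 of the 19 genes of this list and for 21.9% of all genes tested. Both Rag1-/- pools were below each WT pool for 3 of the 19 and for 24% of all genes.

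Of 19 macrophage surface genes 1 was called, Cx3cr1, the fractalkine receptor of macrophages and of some lymphocytes, with 1.80, 1.70 and 2.91 CPM in WT and 22.6 and 9.58 CPM in pools 2 and 7 (2.92, adjusted p = 0.031, edgeR). Axl, a receptor for dying cells that other skin cells express too, and Cd36, a scavenger receptor, had log2 fold changes of 0.06 and -1.01 and did not pass. Of 10 Fc receptors and adaptors 1 was called, Lilrb4a, an inhibitory receptor of myeloid and lymphoid cells (1.64, adjusted p = 0.036), while the inhibitory Fc receptor gene Fcgr2b had -0.22. Of 10 secreted products Arg1 (2.41, adjusted p = 0.043) and Tnf (1.24, adjusted p = 0.043) were called, and ILC2s are known to make both arginase 1 and TNF.

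The remaining lists held no call with edgeR. Of 7 complement genes 6 were tested, with a median log2 fold change of -0.09, and the most abundant, C3 and properdin (Cfp), had 0.88 and 0.05. All 14 lysosome genes were tested, with a median of -0.13, and Psap and Ctsd, which encode prosaposin and cathepsin D, had 0.02 and -0.18. Of 10 monocyte and neutrophil genes 6 were tested, with a median of 1.53. S100a9 was at 0.18 to 6.19 CPM in WT and at 36.8 and 6.94 CPM in pools 2 and 7, and S100a8 at 0.46 to 3.53 CPM in WT and at 12.9 and 4.03 CPM in those pools, neither of which passed the test.

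Some other genes of macrophages and dermal dendritic cells were low in pool 2 and others were not, and those named here were chosen after their values were seen. Of the 104 genes of the wider lists that passed the filter on low counts, 12 were at least 4-fold higher in pool 7 than in pool 2 and 2 were at least 4-fold higher in pool 2, against 6.89% and 4.54% of all genes tested. C1qc, the third C1q chain, was 6.16-fold higher in pool 7, near the 6.44-fold and 6.57-fold of C1qa and C1qb. The scavenger receptor gene Cd163 was 5.81-fold higher, the folate receptor gene Folr2 5.22-fold and the lectin genes Clec10a and Mgl2 12.4-fold and 5.96-fold. Lyz1 had 0 counts in pool 2, which allows a level of up to 0.373 CPM, and 861 counts or 22.1 CPM in pool 7. Other genes of the same lists were level or lower in pool 7, with a ratio of 1.17 for Zbtb46, 1.08 for Sirpa, 0.835 for Mertk, 0.825 for Ccr7, 0.711 for Axl, 0.633 for Itgam, 0.553 for Ccr2 and 0.424 for Cx3cr1, and the 2 genes at least 4-fold higher in pool 2 were Csf3r (0.170) and S100a9 (0.189). In pool 2 Cd207 had 2545 counts, against 28 for C1qa, 33 for C1qb and 42 for Mrc1.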

How the data were processed

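RNA of sorted dermal ILC2s was sequenced in 3 WT and 2 Rag1-/- pools. Per the labels and the methods of the study, the authors used poly(A) RNA, an unstranded TruSeq v2 kit, STAR 2.5 and featureCounts 1.5.0-p1 on GRCm38, and deposited raw counts per gene. Labels and methods name different annotation releases. A second table of the authors holds a normalized signal for each symbol, used in alternatives of the test (limma) and of the Cd207 to C1qa ratio.

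Groups were taken from the labels, and 0 columns belonged to other samples. From the deposited counts, CPM is the count scaled to the total of the library, and RPKM also divides by the deposited transcript length. Low counts were removed with filterByExpr of edgeR 4.0.16 (R 4.3.3), libraries were scaled by TMM, and the quasi-likelihood test compared the genotypes over 19011 genes, with p-values adjusted by Benjamini-Hochberg. Simulated counts with known changes were used to check this step. The methods of the study call the pools independent biological replicates and give the mice in each, with 10 per WT pool. They name no batches of the pools, and the p-values measure the spread between pools. Alternatives were DESeq2 1.42.0, limma 3.58.1 on log2(signal + 1), RLE size factors, total counts, pan-leukocyte scaling, a minimum of 10 counts in each library, no filter, adjusted p alone, and each library left out. Ratios had 0.5 added to each count. Where symbols repeat, the first row was used.

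The genes and lists were chosen with earlier results of these data known. Named were the 10 genes, in each wider list the called genes (up to 4) or, with fewer than 2 called, the 2 of highest mean CPM as well, and the 3 tested genes most like Cd207, C1qa and Csf1r, with Rag1, Ptprc and Thy1 for context (Krt14 only within the keratinocyte markers). Annotation was GENCODE M21 and RefSeq, both GRCm38.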

Additional observations from a re-analysis of the deposited data

How the results depend on the processing

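Each main result was recomputed under the alternatives. The number of the 10 genes called higher was 0 under every alternative run. The number called lower was 0 with all 5 libraries, 8 with pan-leukocyte scaling, 1 without the filter on low counts, and 0 to 5 with a library left out. Of the wider lists 9 genes were called higher, against 0 with pan-leukocyte scaling, 19 without the filter (3.87% of all genes), 16 with DESeq2 (6.85%) and 0 to 12 with a library left out, the 12 without pool 7 (4.07%). Called lower were 0, against 57, 6 and 3 under the same settings (68%, 4.98% and 7.16%) and 0 to 15 with a library left out, the 15 without pool 7 (7.98%). The log2 ratio of Cd207 over C1qa differed by 1.69 between the genotypes, and by 0.68 to 2.70 with a library left out. The cause of these changes was not tested.

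With pan-leukocyte scaling the log2 fold change turned to -1.53 for Cd207, -1.91 for Adgre1, -1.68 for Itgax and -1.60 for Fcgr1. With a library left out it ranged from -0.015 to 1.39 for Cd207, from -0.62 to 0.33 for Csf1r, from -2.54 to 0.82 for Lyz2, from -1.22 to 0.011 for Cd68, from -2.43 to 0.38 for C1qa, from -2.18 to 0.66 for C1qb, from -0.46 to 0.64 for Adgre1 and from -1.04 to 1.29 for Fcgr1. Mrc1 stayed below 0 and Itgax above 0 with each library left out, and Itgax turned only with pan-leukocyte scaling. No paired analysis was possible because the genotypes share no replicate numbers. With 8050562 counts, pool 2 limits Fcgr1 most, at 4 counts.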
